A study of Bos taurus with 6 samples.

Results

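Inhibins, activins, follistatins and anti-Müllerian hormone (AMH) are linked follicular hormones and binding proteins, and the expression of 10 genes of this system was measured in cultured bovine granulosa cells (GC) plated at normal or at high density. The genes were chosen by name, with earlier results of these data known. They are the subunit genes INHA, INHBA and INHBB, the hormone gene AMH, the binding protein genes FST and FSTL3, and the receptor genes ACVR1B, ACVR2A, ACVR2B and AMHR2. Each symbol occurs exactly once in the deposited table, so the genes account for 10 of its 26773 transcript clusters, the array's unit for a gene. Both densities were represented by 3 cultures of primary GC, and the high density wells received 10 times as many cells as the normal density wells. All 6 cultures shared a serum-free medium with 20 ng/ml FSH, 50 ng/ml IGF-1 and 2 μM androstenedione, and RNA was taken after 9 days. The cells were thawed pools from small to medium-sized follicles of many abattoir cows whose cycle stage was not known. Whether a normal and a high density culture of the same number came from 1 pool is not stated in the sources used here.

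Inhibin is a dimer of the alpha subunit encoded by INHA with a beta subunit encoded by INHBA or INHBB, whereas activins are dimers of beta subunits alone. GC are the main source of inhibin, which lowers FSH release from the pituitary, while activin raises it and also acts within the follicle. Activin binds a type II receptor, ACVR2A or ACVR2B, which recruits the type I receptor ACVR1B, and the signal passes through SMAD2 and SMAD3. Follistatin, encoded by FST, and the related protein encoded by FSTL3 bind activin and keep it from its receptors. AMH is made by GC of growing follicles and signals through its own type II receptor, AMHR2, to SMAD1, SMAD5 and SMAD9.

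The values are log2 signals from the Bovine Gene 1.0 ST Array, and each change is the difference between the mean log2 signals of high and normal density, tested with limma and given with its standard error (SE). A gene is termed called, or up- or down-regulated, when it passed the thresholds of the study's methods, a fold change (FC) above 1.5 in size with a p-value and a false discovery rate below 0.05. The array medians were between 4.34 and 4.43. The 95th percentile of 82 reporter control rows, 4.62, served as the background level, and both group means of all 10 genes lay above it. In these bulk samples, fewer cells of a type and less RNA per cell cannot be told apart. All 8 genes of a granulosa marker list exceeded the background level in at least 1 group. Of these markers 4 were called, the transcription factor FOXL2, FSHR and CYP19A1 as down- and HSD17B1 as up-regulated, and the median log2 fold change of the 8 was −0.25. Their summed linear signal was between 3690 and 3967 at normal density and between 3390 and 3584 at high density. GJA1, the brightest of them (log2 means of 11.04 and 10.84, not called), weighed most in these sums. At high density CYP19A1 was below the background level, at 3.71 ± 0.23 (SD, n = 3). The defining theca gene CYP17A1 was below it at both densities (2.93 and 2.92), as were all 9 leukocyte and all 5 oocyte markers and 7 of 8 endothelial markers. The theca marker INSL3 was up-regulated by 1.82 (SE 0.09, adjusted p = 3.88e-05 by limma), and the summed linear signal of the 6 theca markers was between 319 and 350 at normal density and between 676 and 784 at high density. The difference lay almost wholly in INSL3. None of the other 5 theca markers was called, with changes from −0.066 to 0.31 on the log2 scale, and their sums without INSL3 were between 178 and 195 at normal and between 192 and 201 at high density. For 6 fibroblast and smooth muscle markers the sums were between 5048 and 5200 and between 5424 and 5573, with PDGFRB up-regulated by 0.94. LUM (log2 means of 11.64 and 11.65) and DCN (10.68 and 10.86), neither of them called, weighed most in these sums. MYH11 was called as down-regulated, but both of its means were below the background level (4.59 and 3.93), so that the size of its change is uncertain. The part of these differences in the results below was not tested.

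At high density INHA, INHBA and FST were down-regulated and FSTL3 was up-regulated, so that 4 of the 10 genes were called. In comparison, 7.49% of all transcript clusters were called, 3.97% as up- and 3.51% as down-regulated. Many of these clusters had low signals, unlike the 10 genes. When only the 13077 with a group mean above the background level were tested, 1695 were called, a larger share. The same 4 genes passed the false discovery rate alone, which 19.1% of all transcript clusters did. The signals of the 3 high density cultures did not overlap those of the 3 normal density cultures in 8 of the 10 genes, which was the case for 37.3% of all transcript clusters. The median log2 fold change of the 10 genes was −0.11, and that of all transcript clusters was 0.018. The calls were limited to subunits and binding proteins, and none of the receptor genes nor AMH was called.

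**Figure D1:**
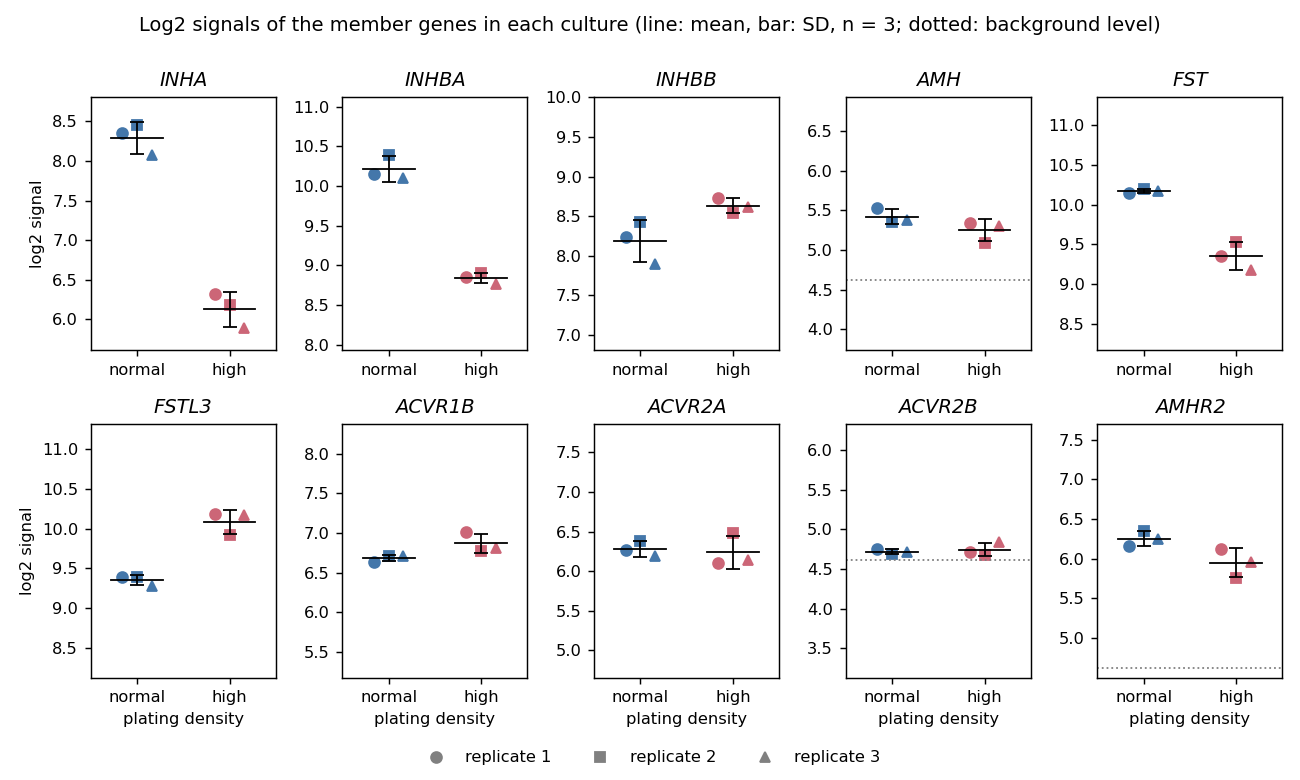
Log2 signals of the 10 genes in each culture at normal (blue) and high (red) plating density, with the mean as a line, the SD as a bar (n = 3) and symbols for the replicates. Each panel spans the same height on the log2 scale, and the steps of INHA from 8.29 to 6.13 and of INHBA from 10.21 to 8.84 stand out against the nearly level receptors.

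INHA (transcript cluster 12774405), the gene of the inhibin-specific subunit, had signals of 8.35, 8.45 and 8.07 in the normal density cultures 1 to 3. In the high density cultures the signals were 6.33, 6.18 and 5.89. A gap of 1.74 separated the highest high density from the lowest normal density culture, while the cultures of a density spanned 0.38 at normal and 0.44 at high density. The log2 fold change was −2.16 (SE 0.14, adjusted p = 1.05e-04 by limma), an FC of 4.46 in size. It ranked as number 14 among the falls of the whole table, and 0.27% of all transcript clusters changed more strongly in either direction.

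INHBA (12848966), which encodes the subunit shared by inhibin A and activin A, had normal density signals of 10.15, 10.40 and 10.10. At high density they were 8.85, 8.90 and 8.77, close to each other and separated from the normal density cultures by a gap of 1.20. On the log2 scale INHBA changed by −1.37 (SE 0.10, adjusted p = 1.36e-04 by limma), an FC of 2.59 in size. A stronger change was found for 1.08% of all transcript clusters.

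The other beta subunit gene, INHBB (12777446), was not called. Its signals were 8.23, 8.43 and 7.90 at normal density and 8.73, 8.54 and 8.62 at high density. All high density cultures lay above all normal density cultures, but only by 0.11, and the widest spread, 0.53, was within normal density. The means differed by 0.44 on the log2 scale (SE 0.14, adjusted p = 0.0626 by limma), below the FC threshold. Its 95% interval from 0.12 to 0.76 reaches past that threshold, 0.58 on the log2 scale, so the data do not settle whether the change exceeds it. The size depended on single cultures. Without normal density replicate 3, the lowest culture, the log2 fold change was 0.30 (adjusted p = 0.134 by limma). Without normal density replicate 2 it was 0.56 (adjusted p = 0.0365 by limma).

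Signals of different transcript clusters are not comparable as levels, but the difference between 2 genes within a culture shows whether their signals changed by unequal amounts. In the study, the sizes of changes by qPCR and by array differed to an unequal extent between genes. Whether the transcripts themselves changed by unequal amounts was therefore not tested. The difference INHA minus INHBA averaged −1.92 ± 0.12 in the normal and −2.71 ± 0.18 in the high density cultures (SD, n = 3). The INHA signal thus decreased by 0.78 more than the INHBA signal on the log2 scale. For INHBA minus INHBB the means were 2.03 ± 0.15 and 0.21 ± 0.13 (SD, n = 3), a shift of −1.82 between the beta subunits. INHBA minus FST moved from 0.044 ± 0.14 to −0.51 ± 0.11 (SD, n = 3), a shift of −0.56. In each of these differences the cultures of both densities were apart, and two-sided exact permutation tests gave p = 0.1 for each, the minimum for 3 cultures per group, which is also the value after adjustment over the 4 pairs computed.

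**Figure D2:**
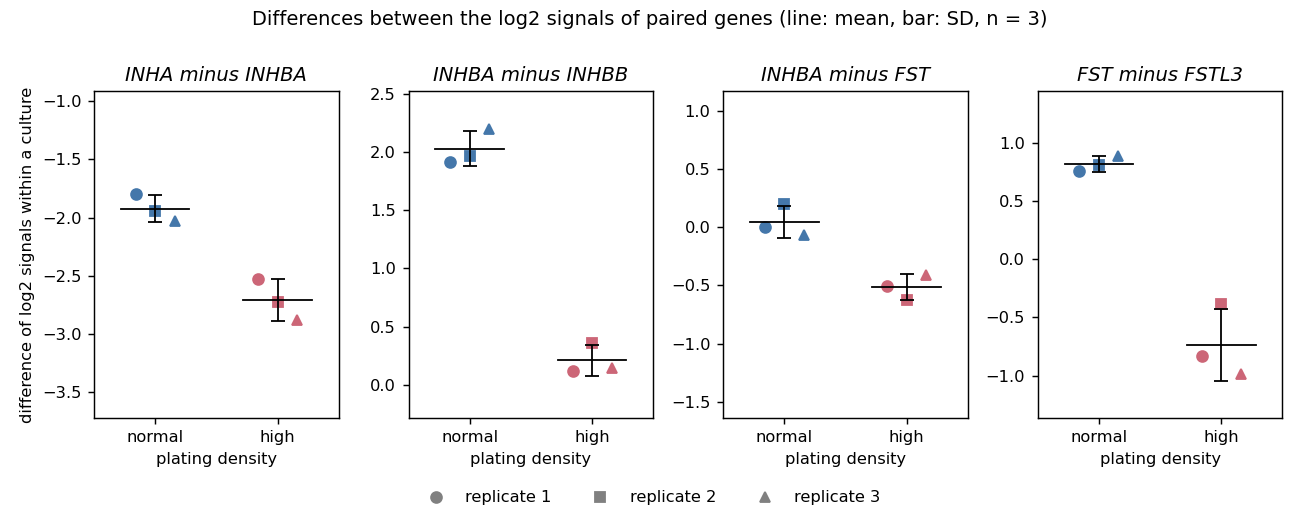
Difference between the log2 signals of a pair of genes within each culture, at normal (blue) and high (red) plating density, with the mean as a line and the SD as a bar (n = 3). All 4 differences are lower at high density, with the largest shift, −1.82, for INHBA minus INHBB and the smallest, −0.56, for INHBA minus FST.

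The binding proteins of activin changed in opposite directions. FST (12787048) had signals of 10.15, 10.20 and 10.17 at normal density, the tightest of the 10 genes, with a span of 0.05. At high density they were 9.35, 9.53 and 9.18, all below the normal density cultures. This is a log2 fold change of −0.82 (SE 0.10, adjusted p = 0.00130 by limma), an FC of 1.76 in size.

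FSTL3 (12879171) rose from 9.39, 9.39 and 9.28 in the normal density cultures to 10.18, 9.91 and 10.17 in the high density cultures. Replicate 2 was the lowest at high density and still 0.52 above every normal density culture. This is a log2 fold change of 0.74 (SE 0.09, adjusted p = 0.00177 by limma), an FC of 1.67. The lower end of its 95% interval, 0.52, lies below the FC threshold, whereas the interval of FST, −1.05 to −0.59, lies just beyond it.

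The difference FST minus FSTL3, a pair added after the values were seen, averaged 0.82 ± 0.07 in normal and −0.74 ± 0.31 in high density cultures (SD, n = 3). It moved by −1.55 (exact permutation test, two-sided, p = 0.1, again the minimum). High density replicate 2, with −0.39, was nearest to the normal density cultures, which lay between 0.75 and 0.89.

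AMH (12876741) had signals of 5.53, 5.36 and 5.38 at normal density and of 5.35, 5.09 and 5.31 at high density. The groups were 0.01 apart, much less than the span within either density. The log2 fold change of −0.18 (SE 0.09, adjusted p = 0.249 by limma) passed no threshold, and without high density replicate 2, the lowest culture, it was −0.096. Its 95% interval, −0.40 to 0.05, does not reach an FC of 1.5. The signals were less than 1 log2 unit above the background level, which limits how far a fall could be seen.

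Among the receptors, AMHR2 (12866047), the type II receptor of AMH, had normal density signals of 6.16, 6.35 and 6.25 and high density signals of 6.12, 5.76 and 5.96. The groups were separated by 0.03. The means of AMHR2 differed by −0.31 on the log2 scale (SE 0.11, adjusted p = 0.0933 by limma), with a 95% interval from −0.56 to −0.05. This interval is not adjusted for the number of transcript clusters tested.

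ACVR1B (12867796), the type I receptor of activin, had signals of 6.64, 6.71 and 6.71 at normal density. They were 7.01, 6.78 and 6.82 at high density, where replicate 1 stood highest. The means of ACVR1B differed by 0.18 on the log2 scale (SE 0.08, adjusted p = 0.179 by limma), and by 0.11 without high density replicate 1 (adjusted p = 0.405 by limma).

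For the type II receptors of activin the densities overlapped. ACVR2A (12780223) had signals of 6.27, 6.38 and 6.19 at normal density and 6.10, 6.48 and 6.14 at high density, where replicate 2 was the highest of all 6 cultures. Its log2 difference of −0.040 (SE 0.12, adjusted p = 0.849 by limma) lay within the spread between replicates. Without high density replicate 2 the value was −0.16, whereas without normal density replicate 2, high density replicate 1 or high density replicate 3 its sign turned, with a highest value of 0.030. ACVR2B (12794393) had signals of 4.75, 4.69 and 4.71 at normal density and 4.71, 4.68 and 4.84 at high density, close to the background level. The log2 difference was 0.028 (SE 0.07, adjusted p = 0.831 by limma), and the sign turned without high density replicate 3 (−0.019) and with the arrays centred on their medians (−0.016).

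The 95% intervals of 5 of the 6 genes not called lay within an FC of 1.5 in either direction. They were −0.31 to 0.23 for ACVR2A, −0.14 to 0.20 for ACVR2B and −0.01 to 0.38 for ACVR1B. INHBB was the exception.

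**Figure D3:**
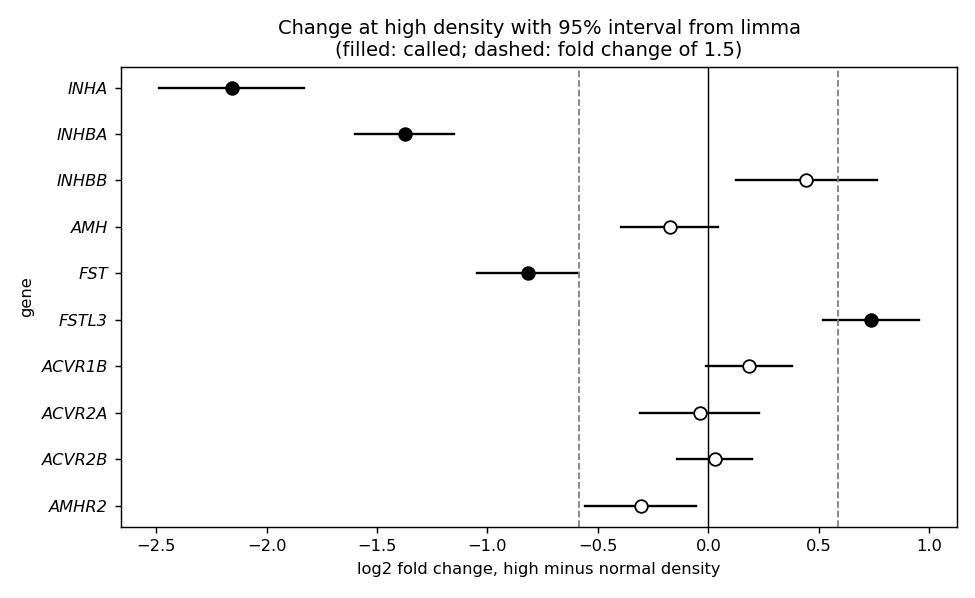
Log2 fold change (high minus normal density) of each gene with its 95% interval from limma, filled where the gene was called, with dashed lines at an FC of 1.5 in both directions. INHA (−2.16), INHBA (−1.37), FST (−0.82) and FSTL3 (0.74) were called, and of the open points only the interval of INHBB, 0.12 to 0.76, crosses a dashed line.

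The cultures of a density did not deviate in the same manner for all genes. In normal density replicate 2 the signals of 7 of the 10 genes were the highest of their group, including all 3 inhibin subunits, and normal density replicate 3 was the lowest for 5 genes, again including these subunits. High density replicate 2 was the highest or the lowest of its group in 9 of the 10 genes, with the exception of INHA. It had the highest signals of INHBA, FST and ACVR2A, and the lowest of INHBB, AMH, FSTL3, ACVR1B, ACVR2B and AMHR2. The SD was larger at high density for 8 of the 10 genes, as for 68.4% of all transcript clusters, and INHBA and INHBB were the exceptions. The changes of INHA and INHBA amounted to 9.76 and 8.58 times the larger SD of their groups, those of FST and FSTL3 to 4.71 and 4.86 times, and those of the other genes to at most 1.67 times.

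Other genes of the pathway were taken from 6 lists with 69 genes, of which 67 were present in the table under their own symbols. SMAD2 occurs there only in a row shared with SMAD3, which was not used. Of the 67 genes 13 were called, 8 up- and 5 down-regulated, beside 7.49% of all transcript clusters. The list of 7 FSH-related genes alone held 5 of these calls, 4 of them down-regulated. The lists were chosen with earlier results of these data known, so the count is no independent test. The median log2 fold change of the 67 was 0.0072. Of the receptors and co-receptors outside the 10 genes, 1 of 8 was called. This was BAMBI, a decoy receptor that dampens signals of the family, with a log2 fold change of 0.68 (SE 0.14, adjusted p = 0.0134 by limma). BAMBI was not called with the methods' analysis of variance (adjusted p = 0.0828), nor without normal density replicate 1 (adjusted p = 0.0555 by limma) or normal density replicate 2 (0.0503). TGFBR3, the inhibin co-receptor betaglycan, had a log2 difference of −0.17 (SE 0.12, adjusted p = 0.369 by limma). The type I receptors through which AMH can signal, ACVR1, BMPR1A and BMPR1B, had log2 fold changes of −0.19, −0.19 and 0.17 and were not called.

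Among 14 further ligands and binding proteins, 2 were up-regulated. MSTN, the gene of the activin-related ligand myostatin, changed by 0.75 (SE 0.11, adjusted p = 0.00308 by limma) from a normal density signal of 4.21, below the background level. With the normal density signals set to that level it was at least 1.27-fold higher. FSTL4, a follistatin-like gene, changed by 0.80 (SE 0.10, adjusted p = 0.00162 by limma). FSTL1 was lower by less than the FC threshold, with a log2 fold change of −0.46 (adjusted p = 0.0111 by limma). In 10 of the 14 genes both means were at or below the background level, among them those of the activin subunits INHBC and INHBE and the oocyte ligands GDF9 and BMP15.

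Of 17 SMAD genes and modulators 2 were up-regulated. PMEPA1, a SMAD-induced inhibitor of the pathway, changed by 1.01 (SE 0.10, adjusted p = 6.95e-04 by limma). SMAD7, an inhibitory SMAD, changed by 0.90 (SE 0.08, adjusted p = 3.72e-04 by limma). The means of SMAD6, another inhibitory SMAD, differed by only −0.041 on the log2 scale (SE 0.09, adjusted p = 0.811 by limma). SMAD3, the mediator of activin, had a log2 fold change of 0.11 (adjusted p = 0.575 by limma) and SMAD4 of 0.048. SMAD1, SMAD5 and SMAD9, which act downstream of AMH and the bone morphogenetic proteins, had log2 differences of −0.43, −0.40 and −0.53. These 3 values passed the false discovery rate but not the FC threshold, with limma's adjusted p of 0.00485, 0.0232 and 0.00181.

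Of 8 proteases that process precursors of the family only TLL2, a tolloid-like metalloprotease, was called. Its log2 fold change was 0.92 (SE 0.11, adjusted p = 0.00148 by limma). FURIN, a convertase that cleaves inhibin and AMH precursors, had a log2 fold change of −0.16 and was not called. Of 13 transcription factor genes linked to the inhibin and AMH promoters, 2 were called. FOXL2 changed by −0.65 (SE 0.10, adjusted p = 0.00424 by limma) and SOX9 by 0.83 (SE 0.09, adjusted p = 9.17e-04 by limma). NR5A1, whose product binds the promoters of INHA and AMH, had a log2 fold change of −0.28 (adjusted p = 0.130 by limma), and GATA4 of 0.12. In all, 5 of the 13 passed the false discovery rate. Besides the called genes these were NR5A2 (0.41), ESR2 (−0.31) and WT1 (0.45), all below the FC threshold. The normal density mean of WT1, 4.22, was below the background level.

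FSH acts through its receptor on GC and stimulates INHA expression. Of 7 genes listed as the FSH receptor and FSH-responsive genes, 4 were down- and 1 was up-regulated. Whether the changes of these genes and of INHA are linked was not tested. FSHR changed by −2.21 (SE 0.14), next to −2.16 for INHA. The high density mean of FSHR, 4.73, was close to the background level and replicate 3, at 4.53, was below it. The size of the FSHR change is therefore uncertain, and the 2 sizes cannot be compared closely. CYP19A1, the aromatase gene, was at least 3.70-fold lower at high density, where its signals were set to the background level because all 3 lay below it, and the log2 fold change of the measured signals was −2.80 (SE 0.15). LHCGR changed by −1.20 (SE 0.10), but neither of its means reached the background level, and the size of this change is uncertain. PRKAR2B, a regulatory subunit of protein kinase A named here beyond the rule for named genes, changed by −0.63 and was not called without high density replicate 1 or 3 (−0.57 in each case). HSD17B1, an enzyme of estradiol synthesis, changed in the other direction by 1.26 (SE 0.12, adjusted p = 5.90e-04 by limma) from a normal density signal of 4.19, below the background level, and was at least 1.78-fold higher by the same bound.

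**Figure D4:**
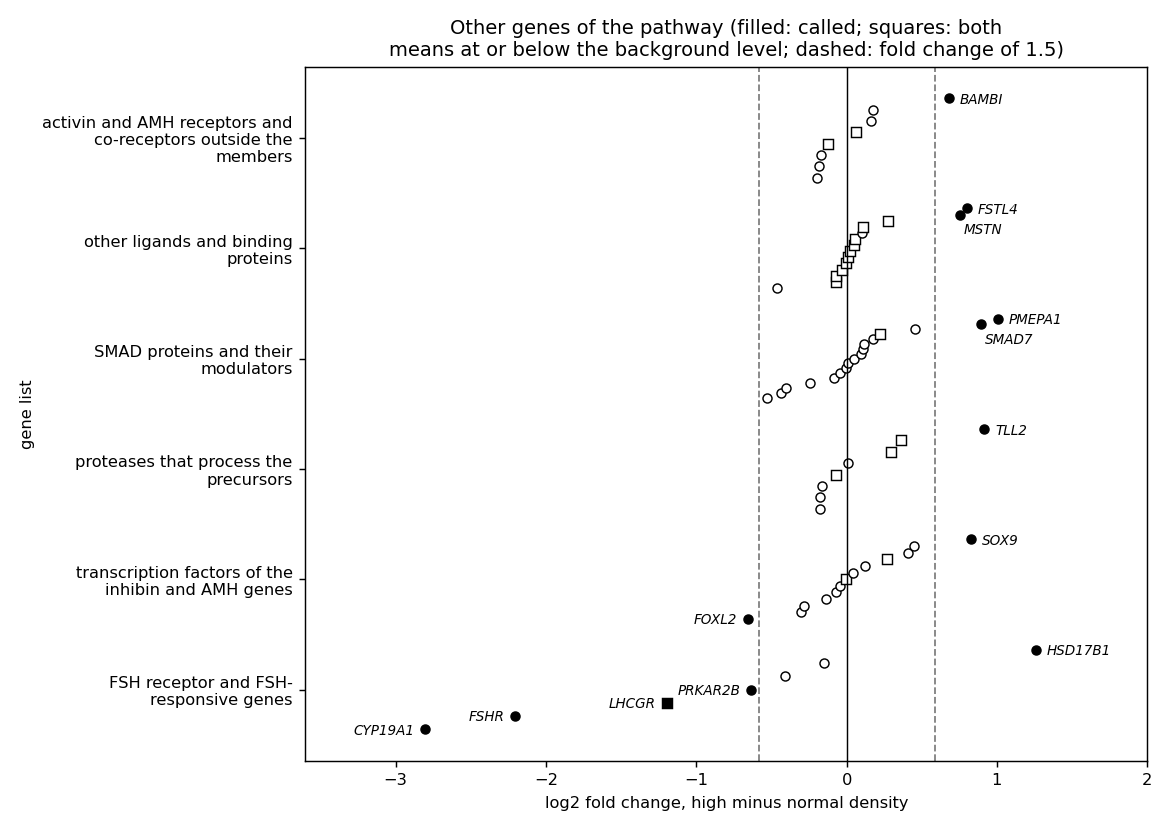
Log2 fold changes (high minus normal density) of the genes of 6 pathway lists, 1 point per transcript cluster, filled and named where called, as squares where both group means were at or below the background level of 4.62, with dashed lines at an FC of 1.5. Most points lie between the dashed lines, the called genes of the SMAD and ligand lists lie to the right, and FSHR (−2.21) and CYP19A1 (−2.80, with a high density mean below the background level) lie farthest to the left.

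The transcript clusters most like INHA and INHBA were found by the Euclidean distance between log2 profiles over the 6 cultures, each centred on its own mean, among 11249 others with a symbol and a group mean above the background level. This likeness mainly reflects the size of the step between the densities. Nearest to INHA were SRGN (distance 0.40), RASL11B (0.42), FSHR (0.45), XDH (0.46) and SLC43A2 (0.51), with log2 fold changes between −2.38 and −1.92. Nearest to INHBA were TRIB2 (0.12), SERPINE2 (0.15), EEPD1 (0.23), HEG1 (0.25) and CA14 (0.27), with log2 fold changes between −1.53 and −1.19. The high density means of XDH (3.91) and CA14 (3.88) were below the background level, and that of FSHR (4.73) was close to it. The distances, places and fold changes of these genes are therefore uncertain. INHBA and all of its nearest profiles had the same order of normal density cultures, with replicate 2 highest and replicate 3 lowest. INHA had this order too. The profiles were picked for likeness over the same cultures, so the shared order is not a separate result. The distances around INHBA were smaller than those around INHA, whose step is larger.

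**Figure D5:**
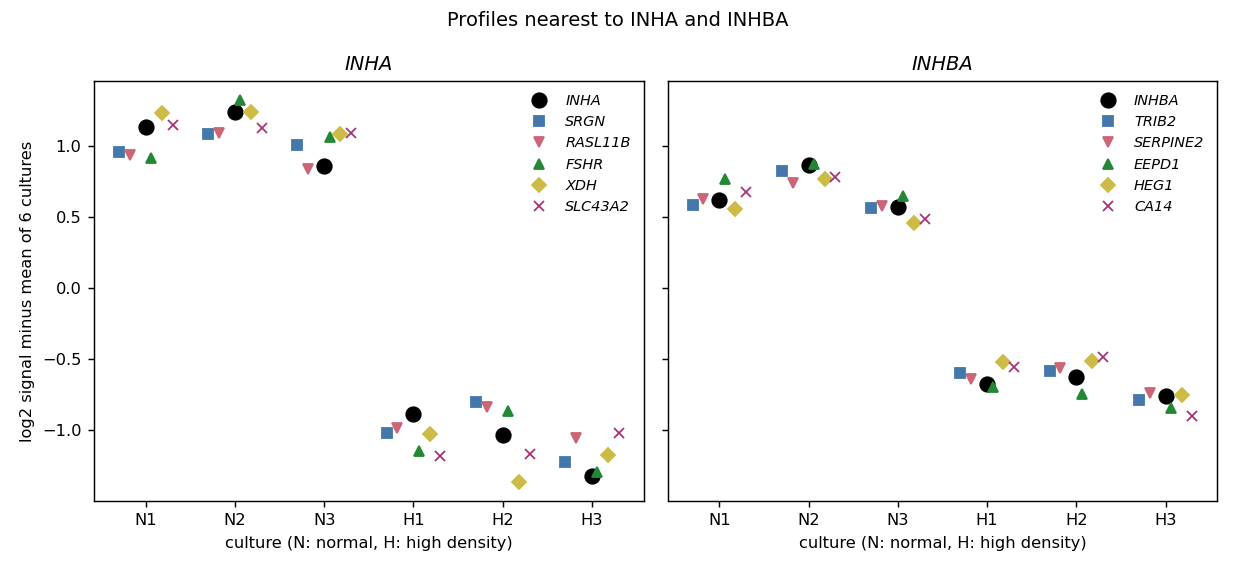
Log2 signals minus the mean of the 6 cultures for INHA and INHBA (black) and the 5 transcript clusters nearest to each, for normal (N1 to N3) and high density (H1 to H3) cultures. The points around INHBA lie closer together (distances of 0.12 to 0.27) than those around INHA (0.40 to 0.51).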

How the data were processed

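RNA of 6 GC cultures was hybridized to 1 array each. The authors processed the scans in Affymetrix Expression Console with RMA (background reduction, normalization, gene-level summary), and the deposited log2 signals per transcript cluster were used without further normalization. The labels also name Transcriptome Analysis Console 3.0. The table has 0 columns of other samples. Groups and replicate numbers are those of the labels, which give no batch. Precision is limited by the number of arrays. The p-values set the differences against the spread between these cultures, which may be partly technical.

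limma 3.58.1 in R 4.3.3 (lmFit, eBayes, no covariates) was fitted to all 26773 transcript clusters, with Benjamini-Hochberg adjustment over all of them. The alternatives were the methods' analysis of variance (for 2 groups the same as an equal-variance t-test), a variance trend with robust fitting, arrays weighted by quality, arrays shifted to equal medians, quantile normalization of the deposited signals, a filter at the background level, a replicate block, and each culture left out. In simulated data with 200 changed transcript clusters of 26773, limma recovered 84% of changes of 1 and 98% of changes of 2 on the log2 scale. The methods' analysis of variance recovered 45% and 83%. The simulated noise had the same SD at both densities, unlike the data, where the SD was mostly larger at high density.

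The genes and lists were chosen with earlier results of these data known. A listed transcription factor gene is not reported here and was left out of the counts. All 10 genes, up to 4 called genes per list, genes set beside a member and 5 nearest profiles were named. All 10 symbols occur in the RefSeq gene table. Figures were drawn with matplotlib 3.10.9. Oligonucleotide probes, genome positions and hormone concentrations were not analysed here.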

Additional observations from a re-analysis of the deposited data

How the results depend on the processing

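The number of called genes was 4 of 10, with 1 up- and 3 down-regulated, under all 13 alternatives, and the number called in the pathway lists was 12 or 13. The log2 fold change stayed between −2.27 and −2.04 for INHA, −1.43 and −1.28 for INHBA, −0.91 and −0.73 for FST, and 0.69 and 0.82 for FSTL3. None of the other 6 genes was called under an alternative. INHBB had adjusted p-values from limma between 0.0301, with the filter on low signals, and 0.169, and 0.183 with the methods' analysis of variance, and its log2 fold change was between 0.30 and 0.56. Those of AMH and ACVR1B were between −0.22 and −0.096 and between 0.11 and 0.23. AMHR2 had adjusted p-values down to 0.0458, also with the filter. Leaving out each culture gave log2 fold changes between −0.16 and 0.030 for ACVR2A and between −0.019 and 0.059 for ACVR2B, and median centring gave −0.016 for ACVR2B. The cause was not tested. The shifts between paired genes kept their direction in all 8 alternatives run for each.

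No pairing of the cultures by replicate number was seen in the signals. The correlations of the deviations from the group means were 0.046, −0.046 and −0.041 for same-numbered cultures, and not every culture correlated best with its own number. With so few cultures per density, these correlations cannot decide whether same-numbered cultures came from a shared pool. With the replicate number as a block, 4 of the 10 genes and 2020 transcript clusters in all were called, beside 2005 without it. Signals close to the background level limit AMH and ACVR2B.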
